A study of Mus musculus with 30 samples.

Results

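The genes of antigen presentation by major histocompatibility complex (MHC) molecules were followed through heart development in the mouse. The 10 genes were chosen by name, 5 of the class I pathway (H2-K1, H2-D1, B2m, Tap1 and Tap2) and 5 of the class II pathway (H2-Aa, H2-Ab1, H2-Eb1, Cd74 and Ciita), and are 10 of the 48820 genes in the count table. The samples were hearts of wild-type (WT), untreated mice at 10 ages, with 3 libraries at each age and 30 in all. The ages before birth were embryonic days 10.5, 12.5, 14.5, 16.5 and 18.5 (E10.5 to E18.5), and those after birth were postnatal day 1 (P1) and postnatal weeks 1, 2, 4 and 8 (1W to 8W). RNA was selected for poly(A) tails before sequencing, and a library held between 23164941 and 50519457 counts. The labels name no strain, and they do not state whether replicates were separate animals or pooled hearts. The p-values thus cover a spread between libraries that may be technical.

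Levels are counts per 1000000 counts of a library (CPM), with library sizes scaled by edgeR's TMM method, and are given for the 3 libraries of an age in the order of their replicate numbers. Changes are log2 changes ± standard error (SE) from 1 edgeR quasi-likelihood fit over the 30 libraries, with Benjamini-Hochberg adjustment over 19280 genes. A gene is said to rise or fall where its adjusted p was under 0.05. All 10 genes passed the filter on low counts. In bulk tissue, fewer cells of a type and less RNA per cell cannot be told apart.

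The tissue label was met by cardiac muscle genes: 8 cardiomyocyte markers were detected at every age and summed to between 19030 and 231200 CPM. The share of counts from mitochondrially encoded genes went from 4.11% to 6.48% at E10.5 to 18.9% to 19.2% at 8W, and its part in the MHC values was not tested beyond a fit scaled without those genes. A few libraries stood apart in ways that touch these genes. Replicate 1 of 4W had the highest value of the age for each class I gene and for each class II gene but Ciita, and it held 41.91 CPM of the lung airway transcript Scgb1a1, against 15.81 and 0 CPM in the other 4W libraries. Replicate 2 of P1 had the highest H2-K1, H2-D1, B2m, Tap1 and Tap2 of its age, with 54.16 CPM summed over 6 liver markers against 1.285 and 3.918 CPM, and with 260.3 CPM summed over 12 macrophage markers against 217.8 and 178.3 CPM. Replicate 2 of E10.5 was the lowest of its age for H2-K1 (0.833 CPM) and Cd74 (0.02975 CPM) and the highest for H2-Ab1 (1.845 CPM). The part of these libraries' other tissues in the MHC values was not tested beyond the values without them. All 3 P1 libraries held Y chromosome transcripts without Xist, and all 3 libraries of 4W and of 8W held Xist without Y transcripts. Age and sex are thus wholly confounded in the change from P1 to 8W, and partly over the ages after birth as a whole. Both Y transcripts and Xist were found in all 3 libraries of E10.5 and in 2 of 3 at E12.5 and at E14.5, but in no library of a later age. Whether these were pools of embryos is not stated, and their spread may be unlike that of later ages.

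Class I molecules carry peptides made inside the cell to its surface, where CD8 T cells read them. H2-K1 and H2-D1 encode heavy chains, B2m encodes the shared light chain beta-2 microglobulin, and Tap1 and Tap2 encode the 2 parts of the transporter that loads peptides in the endoplasmic reticulum. Class II molecules show peptides taken up from outside to CD4 T cells, and are made mainly by macrophages, dendritic cells and B cells. H2-Aa and H2-Ab1 encode the alpha and beta chains of I-A, H2-Eb1 encodes the beta chain of I-E, Cd74 encodes the invariant chain that guards the groove, and Ciita encodes the coactivator that switches the class II genes on. In the heart, resident macrophages are a main source of class II, and class I is found on most cell types.

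The proteins work together and most of the genes lie close together. In GRCm38, 7 of the genes lie on chromosome 17: H2-K1 (33996017 to 34000347), Tap1 (34187553 to 34197225), Tap2 (34203527 to 34216321), H2-Ab1 (34257689 to 34269419), H2-Aa (34282744 to 34287823), H2-Eb1 (34305867 to 34316674) and H2-D1 (35262730 to 35267499). B2m lies on chromosome 2 (122147686 to 122153083) and Ciita on chromosome 16 (10480059 to 10528418).

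Promoters of 6 of the 10 genes were found in the promoter table (RefSeq, GRCm38.p6). The window searched held 250 bases before and 50 after the start site, and 5 motifs were searched on both strands after the sequences had been seen: CCAAT (the Y box of class II promoters), TGACG (the core of a cyclic AMP response element), AANNGAAA (the core bound by interferon regulatory factors), GGGGATTCC (the kappaB site of the class I enhancer A) and CTNGCAAC (the core of the X box bound by the RFX complex). The 250 bases before the start are shown for the 2 class I heavy chains, the light chain and 2 class II chains, so that the motifs of genes that rose at different ages can be read side by side. They are given 5′ to 3′ on the strand of the gene, with the matched letters in capitals.
H2-K1, chr17:34000348-34000597, minus strand: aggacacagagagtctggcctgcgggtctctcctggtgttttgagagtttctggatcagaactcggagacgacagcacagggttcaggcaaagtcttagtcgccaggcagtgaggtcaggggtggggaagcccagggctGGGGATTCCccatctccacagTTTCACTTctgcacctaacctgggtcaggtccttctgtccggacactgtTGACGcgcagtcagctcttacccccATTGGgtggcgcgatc
H2-D1, chr17:35262844-35263093, plus strand: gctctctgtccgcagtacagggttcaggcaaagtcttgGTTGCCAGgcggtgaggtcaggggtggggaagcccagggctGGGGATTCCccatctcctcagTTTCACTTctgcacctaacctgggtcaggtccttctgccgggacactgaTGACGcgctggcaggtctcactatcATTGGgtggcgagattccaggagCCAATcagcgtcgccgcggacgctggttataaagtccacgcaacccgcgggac
B2m, chr2:122147437-122147686, plus strand: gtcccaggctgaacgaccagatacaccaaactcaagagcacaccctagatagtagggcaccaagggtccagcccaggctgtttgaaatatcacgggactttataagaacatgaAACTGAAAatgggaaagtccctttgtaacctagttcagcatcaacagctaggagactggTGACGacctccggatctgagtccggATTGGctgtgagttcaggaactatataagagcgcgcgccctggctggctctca
H2-Aa, chr17:34287824-34288073, minus strand: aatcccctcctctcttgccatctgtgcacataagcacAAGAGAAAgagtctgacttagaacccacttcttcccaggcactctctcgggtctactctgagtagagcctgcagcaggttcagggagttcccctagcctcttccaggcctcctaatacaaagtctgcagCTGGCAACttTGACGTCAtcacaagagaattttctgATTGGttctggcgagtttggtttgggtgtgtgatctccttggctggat
H2-Eb1, chr17:34305617-34305866, plus strand: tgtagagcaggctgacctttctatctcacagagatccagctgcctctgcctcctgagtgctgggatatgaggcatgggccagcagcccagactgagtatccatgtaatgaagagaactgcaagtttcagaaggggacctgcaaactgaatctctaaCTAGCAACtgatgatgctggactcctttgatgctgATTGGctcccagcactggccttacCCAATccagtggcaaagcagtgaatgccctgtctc

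Both heavy chain promoters held GGGGATTCC, which 70 of 27025 promoters of this length held (0.259%). It was followed by an AANNGAAA match on the opposite strand, with 21 bases between the first bases of both motifs in H2-K1 and also in H2-D1. H2-Aa and H2-Eb1 held an X box core on the given strand, starting 84 and 94 bases before the start, and the first base of a CCAAT match on the opposite strand lay 36 and 35 bases further on. An X box core was found in 3.55% of all promoters, H2-D1 among them on the opposite strand. B2m held no match to GGGGATTCC or to the X box core in this window, but it held AANNGAAA (24.2% of promoters), TGACG (21.0%) and CCAAT (37.9%). Other forms of the kappaB site were not searched, so B2m may hold one. CCAAT was found in all 6 promoters searched, and TGACG in all but that of H2-Eb1. The H2-D1 window lies within the longer gene model of GENCODE M21, which starts at 35262730. A match is a description of letters and shows no binding.

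**Figure D1:**
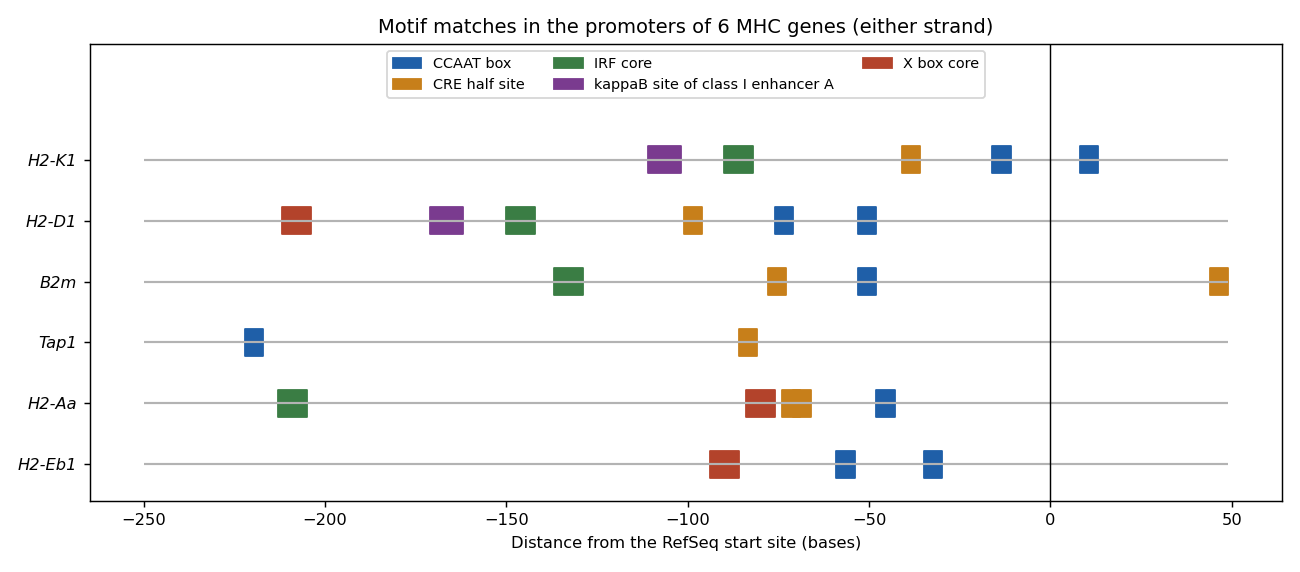
Matches to 5 motifs in the promoters of 6 MHC genes, by distance in bases from the RefSeq start site (vertical line at 0); each colour is a motif, found on either strand. The kappaB site appears in H2-K1 and H2-D1 with the IRF core 21 bases further on, and an X box core followed by a CCAAT box appears in H2-Aa and H2-Eb1.

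All 10 genes changed across the ages (edgeR F test over all ages), as did 93.6% of all genes tested. Per kilobase of exon, B2m was the most abundant of the 10 at E10.5 (37.29 ± 2.51 CPM per kb, SD, n = 3), at P1 (53.22 ± 9.32) and at 8W (161 ± 22.6). At 8W it was followed by Cd74 (63.23 ± 5.16 CPM per kb) and H2-D1 (61.54 ± 9.61), which did not differ beyond their spread, and then by H2-K1 (35.23 ± 4.86). H2-Eb1 (16.84 ± 2.01), H2-Ab1 (13.05 ± 2.28) and H2-Aa (11.6 ± 1.42 CPM per kb) came next, with the spread of H2-Ab1 overlapping those of both others, and Ciita was last at 0.2051 ± 0.045. At P1 the order was different, with the heavy chains and Tap2 above every class II gene: Tap2 stood at 2.033 ± 0.234 CPM per kb and Cd74, the highest class II gene, at 1.491 ± 0.126. At E10.5 H2-Ab1 (0.5032 ± 0.199 CPM per kb) and H2-K1 (0.4388 ± 0.135) lay within each other's spread.

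**Figure D2:**
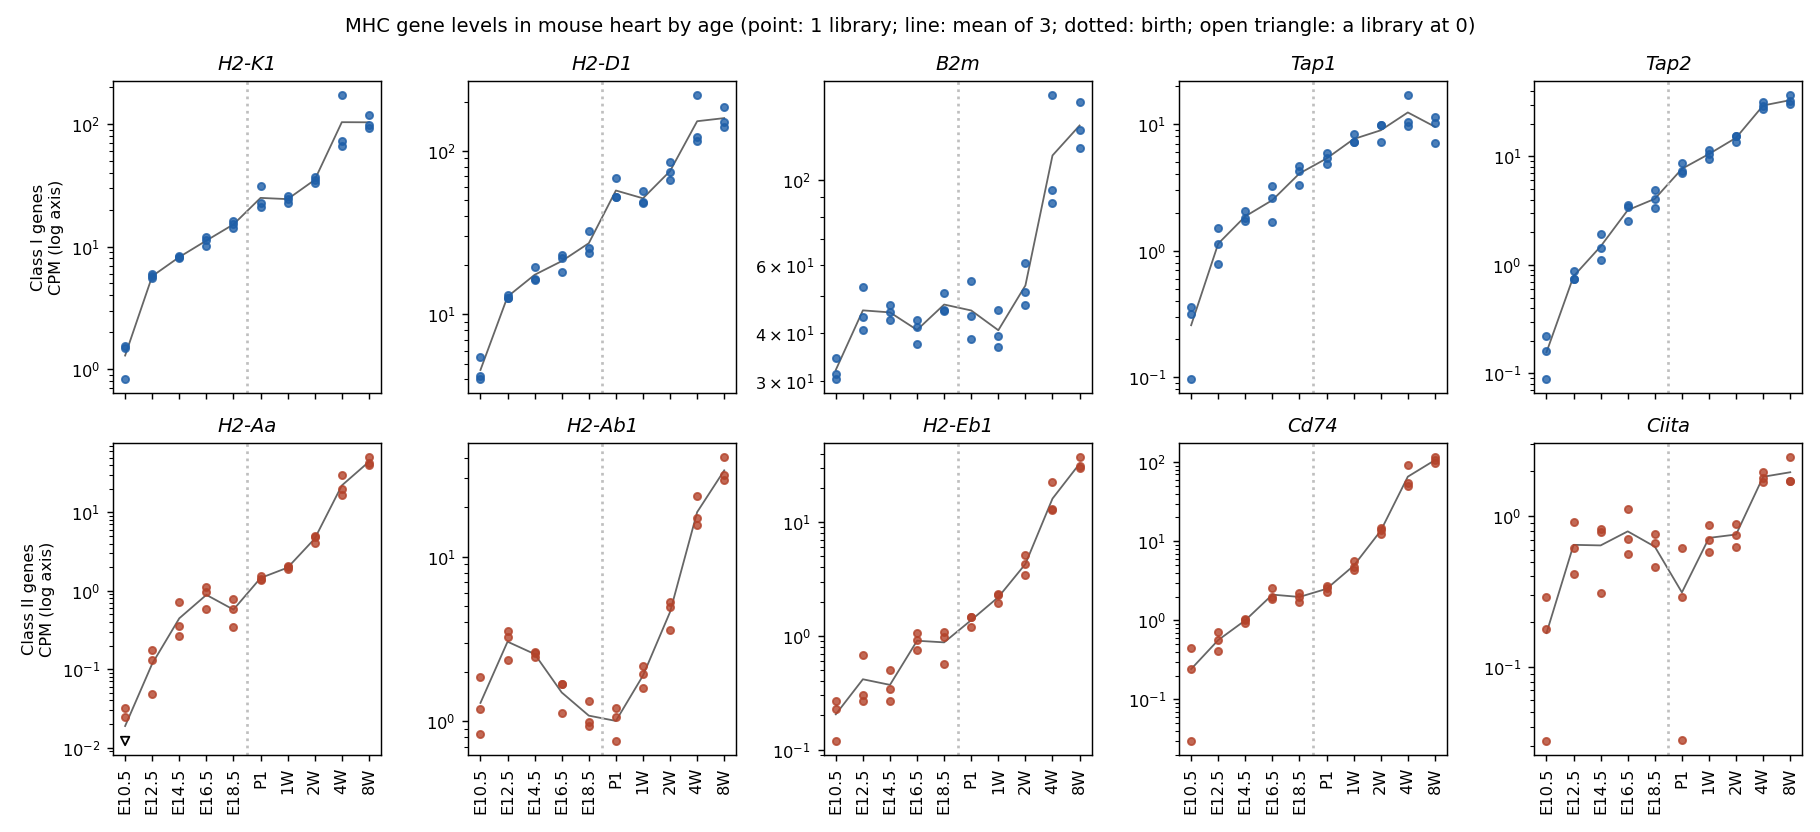
Level of each MHC gene in CPM (log axis, each panel with its own range) against age, with 1 point per library, a line through the mean of 3, and a dotted line at birth; an open triangle stands for a library at 0. Class I genes other than B2m rise on both sides of birth, B2m climbs mainly after 2W, and H2-Ab1 falls from 3.04 CPM at E12.5 to 1.00 CPM at P1 before it climbs to 33.5 CPM.

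The heavy chain genes rose before and after birth. H2-K1 stood at 1.55, 0.833 and 1.485 CPM at E10.5 and at 16.07, 15.27 and 14.2 CPM at E18.5. Its P1 libraries held 22.51, 31.21 and 21.23 CPM, and its 8W libraries 119.6, 92.27 and 98.71 CPM. The libraries of each of these ages lay wholly above those of the one before. H2-K1 rose by 3.55 ± 0.33 from E10.5 to E18.5 (11.7-fold, adjusted p = 4.3e-09) and by 2.05 ± 0.25 from P1 to 8W (4.14-fold, adjusted p = 2.2e-07). The step from E18.5 to P1 was 0.72 ± 0.25 (adjusted p = 0.027), a call that was lost without P1 replicate 2 (0.53, adjusted p = 0.15), E18.5 replicate 2 (adjusted p = 0.064) or E18.5 replicate 3 (adjusted p = 0.084), with a term for sex (adjusted p = 0.05) or with library size alone as the scaling (adjusted p = 0.074).

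H2-D1 followed the same course, at a higher level per kilobase. Its libraries held 4.037, 4.195 and 5.477 CPM at E10.5, 32.53, 25.57 and 23.65 CPM at E18.5 and 51.97, 67.89 and 51.9 CPM at P1. At 8W they held 186.7, 139.7 and 149.7 CPM, again with no overlap between these ages. The gene rose by 2.56 ± 0.23 before birth (5.9-fold, adjusted p = 1.1e-09), by 1.07 ± 0.2 across birth (2.11-fold, adjusted p = 0.00014) and by 1.47 ± 0.19 from P1 to 8W (2.77-fold, adjusted p = 6.5e-07). H2-K1 and H2-D1 are near copies of each other and of the H2-Q and H2-T genes, so how the counting split reads among them is uncertain, and the H2-K1 to H2-D1 ratio of counts, which went from 0.279 at E10.5 to 0.653 at 8W, is given with that limit.

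B2m was called in 2 of the 9 steps between neighbouring ages. It held 30.42, 31.27 and 34.51 CPM at E10.5, rose by 0.51 ± 0.18 to E12.5 (adjusted p = 0.019), and then its age means stayed between 40.67 and 53.16 CPM through 2W. None of the 6 steps from E12.5 to 2W was called. At 4W the libraries held 165.9, 94.21 and 87.08 CPM and at 8W 159.5, 121.1 and 134.7 CPM, all above every earlier library. B2m rose by 1.12 ± 0.18 from 2W to 4W (2.18-fold, adjusted p = 4.8e-05), and by 0.77 without 4W replicate 1 (adjusted p = 5.4e-05). Over E10.5 to E18.5 the change was 0.56 ± 0.18 (adjusted p = 0.0092), which was not called with library size alone (0.40, adjusted p = 0.066).

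The transporter genes started near zero. Tap1 held 0.09688, 0.357 and 0.3164 CPM at E10.5 and 4.707, 4.243 and 3.274 CPM at E18.5, a rise of 3.93 ± 0.34 (15.2-fold, adjusted p = 1.2e-11). Its level after birth changed less, from 4.811, 5.874 and 5.364 CPM at P1 to 10.18, 7.144 and 11.29 CPM at 8W (0.83 ± 0.23, adjusted p = 0.002), and this was not called with library size alone (0.06, adjusted p = 0.82). Tap2 held 0.1615, 0.08925 and 0.2191 CPM at E10.5, 4.01, 4.862 and 3.33 CPM at E18.5, 7.415, 8.674 and 6.97 CPM at P1 and 32.24, 30.13 and 36.65 CPM at 8W. Tap2 thus rose by 4.64 ± 0.26 before birth (24.9-fold, adjusted p = 1.5e-16), by 0.91 ± 0.15 across it (adjusted p = 1.6e-05) and by 2.1 ± 0.15 after it (4.29-fold, adjusted p = 3.1e-14). Without a strand setting, the reads of Tap1 and of Psmb9, which share 212 exonic bases on opposite strands, cannot be told apart there, and likewise 533 bases of Tap2 and the noncoding Gm15821, which had 79 counts in all.

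The class II gene H2-Ab1 went up, then down and then up again. It held 0.8396, 1.845 and 1.193 CPM at E10.5 and rose by 1.23 ± 0.23 to 3.524, 2.344 and 3.262 CPM at E12.5 (adjusted p = 3.9e-05). From E14.5 (2.465, 2.581 and 2.636 CPM) to E16.5 (1.679, 1.117 and 1.689 CPM) it fell by 0.78 on the log2 scale (SE 0.23, adjusted p = 0.012). It was the only one of the 10 genes called lower in any step between neighbouring ages. At P1 the libraries held 0.758, 1.195 and 1.06 CPM, which overlapped those of E18.5 (1.325, 0.9862 and 0.9313 CPM). H2-Ab1 then rose in each of the 4 steps after P1, by 0.91 ± 0.26 to 1W, 1.29 ± 0.22 to 2W, 2.01 ± 0.2 to 4W and 0.84 ± 0.18 to 8W. Its 8W libraries held 40.15, 29.14 and 31.23 CPM, 33.3-fold above P1 (5.06 ± 0.24, adjusted p = 2.5e-18).

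H2-Aa, the alpha chain that pairs with the H2-Ab1 product, was all but missing from the youngest hearts. At E10.5 the 3 libraries together held 2 counts, against 137 counts of H2-Ab1. At E18.5 the libraries held 0.5928, 0.344 and 0.7902 CPM, and the ratio of scaled counts to E10.5 was 29.43 (95% interval 7.8 to 248.6, counting error only; adjusted p = 1.4e-06). H2-Aa rose by 1.37 ± 0.31 from E18.5 to P1 (1.549, 1.434 and 1.381 CPM, adjusted p = 0.00084), while the H2-Ab1 change was -0.09 ± 0.28 (adjusted p = 0.84). At 8W it held 50.1, 39.69 and 42.43 CPM, 30.2-fold above P1 (4.92 ± 0.24, adjusted p = 2e-17). Per kilobase, H2-Aa stood at 0.00497 ± 0.00443 CPM at E10.5, where H2-Ab1 stood at 0.5032 ± 0.199 CPM, and by 8W the spreads of both overlapped.

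H2-Eb1 held 0.2261, 0.119 and 0.2677 CPM at E10.5 and 1.081, 0.9862 and 0.5644 CPM at E18.5, a rise of 2.05 ± 0.4 (adjusted p = 4.5e-05). The libraries held 1.186, 1.468 and 1.477 CPM at P1 and 37.14, 29.75 and 31.31 CPM at 8W. The rise after birth was 4.57 ± 0.25 (23.7-fold, adjusted p = 1.2e-16). The I-E alpha chain is not made in some inbred strains, and its gene is listed here as H2-Ea-ps. That gene had 0 counts in all 30 libraries, which allows at most 0.00298 CPM over the 1005981882 counts (3 counts, counting error only).

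Cd74, on chromosome 18 (60803848 to 60812652, GRCm38), had the largest fitted rise of the 10 genes after birth. Its libraries held 0.4521, 0.02975 and 0.2434 CPM at E10.5, 2.232, 1.972 and 1.722 CPM at E18.5 and 2.702, 2.527 and 2.28 CPM at P1. They then held 4.718, 5.708 and 4.275 CPM at 1W, 14.71, 13.69 and 12.38 CPM at 2W, 92.13, 54.59 and 50.12 CPM at 4W and 114.9, 97.53 and 106.1 CPM at 8W. No libraries of neighbouring ages overlapped from P1 on. Cd74 rose by 3.03 ± 0.38 before birth (8.18-fold, adjusted p = 1.4e-07; 3.71 without E10.5 replicate 1, adjusted p = 8.8e-08) and by 5.4 ± 0.23 from P1 to 8W (42.4-fold, adjusted p = 6.4e-17).

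Ciita, the class II coactivator, was rare at every age. It held 0.03229, 0.1785 and 0.2921 CPM at E10.5 and 0.6625, 0.4587 and 0.762 CPM at E18.5 (1.8 ± 0.55, adjusted p = 0.0052; 2.49 without E10.5 replicate 3, adjusted p = 0.0024). The P1 libraries scattered from 0.03295 to 0.6147 CPM, and the change from E18.5 was -1 ± 0.52 (adjusted p = 0.13), which was called without P1 replicate 2 (-1.92, adjusted p = 0.017). At 8W the libraries held 2.452, 1.701 and 1.715 CPM, a rise of 2.64 ± 0.5 from P1 (6.23-fold, adjusted p = 2.3e-05), and of 3.56 without P1 replicate 2 (adjusted p = 4.2e-06). Ciita had 798 counts over all libraries and Dexi, which overlaps it by 329 exonic bases on the opposite strand, had 8631, so the reads of both genes cannot be told apart there.

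Counted together, 9 of the 10 genes rose from E10.5 to E18.5, H2-Ab1 being the exception (-0.28 ± 0.27, adjusted p = 0.37), where 32.9% of all genes rose. Across birth, 4 of the 10 rose (H2-K1, H2-D1, Tap2 and H2-Aa) and none fell, where 19.8% of all genes rose. From P1 to 8W all 10 rose, where 31.8% of all genes rose, and 10 were also called in each of the 30 fits that left out 1 library. The P1 libraries held Y transcripts alone and the 8W libraries Xist alone, so age and sex cannot be told apart in this change. With library size alone as the scaling, the median change of all genes from P1 to 8W moved from -0.1 to -0.88, and 9 of the 10 rose while 2225 genes rose and 12577 fell, against 6123 and 6763 with TMM. The median change of the 5 class I genes was 3.55 before birth and 1.6 after it, and that of the 5 class II genes was 2.05 before and 4.92 after. The medians over all genes tested were 0 before birth and -0.1 after it.

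The change after birth was also set against the change before it in 1 contrast, which shares no library between the spans. Its postnatal part is confounded with sex, as above. The postnatal change was smaller for H2-K1 (difference -1.5 ± 0.42, adjusted p = 0.0041), H2-D1 (-1.09 ± 0.29, adjusted p = 0.0028), Tap1 (-3.1 ± 0.42, adjusted p = 2.1e-07) and Tap2 (-2.54 ± 0.33, adjusted p = 6.9e-08). It was larger for H2-Ab1 (5.33 ± 0.36, adjusted p = 3e-14), H2-Eb1 (2.51 ± 0.55, adjusted p = 0.00021), Cd74 (2.37 ± 0.57, adjusted p = 0.00088) and B2m (1.03 ± 0.25, adjusted p = 0.0012). B2m was thus the one class I gene on the class II side, although its difference was not called with library size alone (0.42, adjusted p = 0.17), and that of Cd74 was not called without E10.5 replicate 1 (1.69, adjusted p = 0.052). For H2-Aa, with 2 counts at E10.5, and for Ciita (0.84 ± 0.78, adjusted p = 0.36) no difference was called. The difference was positive and called for 26.1% of all genes, and negative and called for 35.1%.

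**Figure D3:**
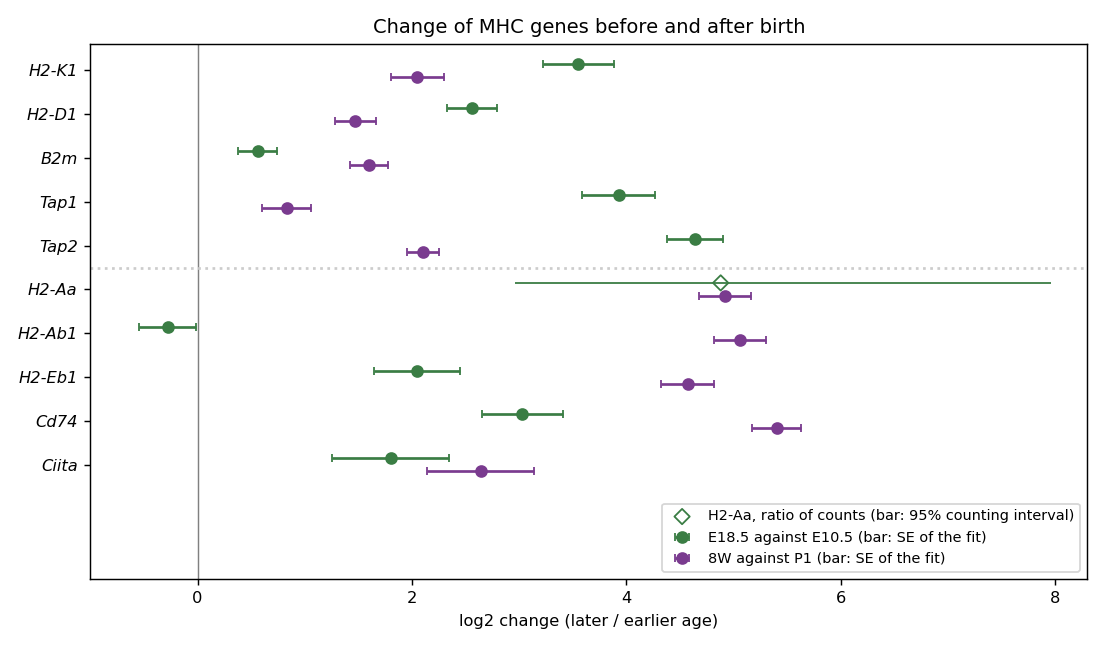
Log2 change of each MHC gene from E10.5 to E18.5 (green) and from P1 to 8W (purple); points are fitted changes with SE bars, and the open diamond is the H2-Aa ratio of counts with its 95% counting interval. For Tap1, Tap2, H2-K1 and H2-D1 the green point lies to the right, and for B2m, H2-Ab1, H2-Eb1, Cd74 and Ciita the purple one.

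The steps between neighbouring ages differed in how many of the genes were called. From E10.5 to E12.5, 9 of 10 rose (31.0% of all genes), H2-Eb1 being the exception (1 ± 0.44, adjusted p = 0.054). From E12.5 to E14.5 only Tap2 and H2-Aa rose (2 of 10, with 10.5% of all genes), and 6 were called without 4W replicate 1 and 1 without E14.5 replicate 2. From E14.5 to E16.5, Tap2, H2-Aa, H2-Eb1 and Cd74 rose and H2-Ab1 fell (5 of 10 called, with 26.0% of all genes called in either direction). From E16.5 to E18.5 only Tap1 rose (13.0% of all genes), by 0.69 ± 0.25 (adjusted p = 0.038), a call that was lost without E16.5 replicate 2 or 3 or without E18.5 replicate 1 or 2. After birth, from P1 to 1W, H2-Ab1, H2-Eb1, Cd74 and Tap2 rose (4 of 10, with 18.8% of all genes), and 2 of the 10 were called without P1 replicate 1, P1 replicate 3 or 1W replicate 2. From 1W to 2W H2-D1, Tap2, H2-Aa, H2-Ab1, H2-Eb1 and Cd74 rose (6 of 10, with 15.5% of all genes).

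Of the steps after birth, that from 2W to 4W had the most calls among the 10 genes. All but Tap1 rose (9 of 10, with 15.8% of all genes), by 2.27 ± 0.19 for Cd74 (4.82-fold, adjusted p = 2.3e-09), 2.25 ± 0.21 for H2-Aa (adjusted p = 2.1e-09) and 1.56 ± 0.24 for H2-K1 (2.96-fold, adjusted p = 4.5e-05). Without 4W replicate 1 these steps were 1.94 for Cd74, 1.97 for H2-Aa and 0.98 for H2-K1 (adjusted p = 3.2e-10, 1.7e-08 and 1.3e-06), and H2-D1 rose by 0.65 (adjusted p = 0.0015) in place of 1.01. Ciita (1.26 ± 0.45, adjusted p = 0.035) was then not called (1.31, adjusted p = 0.055), nor was it without either of the other 4W libraries, without 2W replicate 1 or 3, with a term for sex (1.32, adjusted p = 0.063) or with library size alone (1.04, adjusted p = 0.077). In a fit of the compared ages alone, H2-K1 (1.53, adjusted p = 0.07) and H2-D1 (0.98, adjusted p = 0.063) were not called in this step either. From 4W to 8W, H2-Aa (1 ± 0.19, adjusted p = 0.00027), H2-Ab1 (0.84 ± 0.18, adjusted p = 0.00099), H2-Eb1 (1.02 ± 0.2, adjusted p = 0.00036) and Cd74 (0.69 ± 0.18, adjusted p = 0.006) rose, with 11.8% of all genes, and none of the class I genes was called. With the compared ages alone the change of Cd74 was 0.67 (adjusted p = 0.14). The lack of class I calls rested on 4W replicate 1, since without it H2-K1 (0.57, adjusted p = 0.0028) and B2m (0.61, adjusted p = 0.0018) also rose and 6 of the 10 were called. H2-Aa then rose by 1.28, H2-Ab1 by 1.03, H2-Eb1 by 1.34 and Cd74 by 1.02, above each class I gene.

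Ratios of 2 genes within a library do not depend on the scaling between libraries. The log2 ratio of H2-Ab1 to H2-K1 counts was -0.86, 1.12 and -0.31 at E10.5, -4.83, -4.67 and -4.28 at P1 and -1.57, -1.66 and -1.66 at 8W. The ratio of the counts was 0.988 at E10.5, 0.0414 at P1 and 0.323 at 8W, so that the P1 libraries lay below all those of both other ages. The ratio differed over the ages (F = 34.68, permutation test with 100000 resamples, adjusted p = 1e-05 over 3 ratios, the smallest it can give). Set against Csf1r, the receptor of a macrophage growth factor, H2-Ab1 was also lowest at P1: the mean log2 ratio was -0.71 ± 0.63 (SD, n = 3) at E10.5, -5.41 ± 0.27 at P1 and -1.68 ± 0.26 at 8W (F = 61.43, permutation test, adjusted p = 1e-05). Its partner chain had no low point at P1. The mean log2 ratio of H2-Aa to Csf1r, which was not tested, was -5.51 ± 0.52 at E10.5 (where it rests on 2 counts and the 1 added to each), -7.62 ± 0.65 at E12.5, -4.87 ± 0.24 at P1 and -1.28 ± 0.19 at 8W.

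The H2-K1 heavy chain gained on its light chain from E10.5 to 8W. The log2 ratio of H2-K1 to B2m counts was -4.27, -5.18 and -4.52 at E10.5, -1.66, -1.58 and -1.68 at E18.5, -0.78, -0.8 and -1.06 at P1 and -0.42, -0.39 and -0.45 at 8W (F = 155.5, permutation test, adjusted p = 1e-05). The P1 libraries lay wholly above those of E18.5 and wholly below those of 8W. The chains of I-A drew closer with age. The ratio of H2-Ab1 to H2-Aa counts (1 added to each) was 27.7 at E10.5, 23.3 at E12.5 and 5.95 at E14.5, then 1.69 at E16.5, 1.91 at E18.5 and 0.686 at P1, and it stayed between 0.757 and 0.989 from 1W to 8W. The ratio of H2-Ab1 to H2-Eb1 counts likewise went from 5.62 at E10.5 and 7.46 at E12.5 to 0.727 at P1 and 1.02 at 8W. These last ratios were chosen after their values were seen and were not tested.

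**Figure D4:**
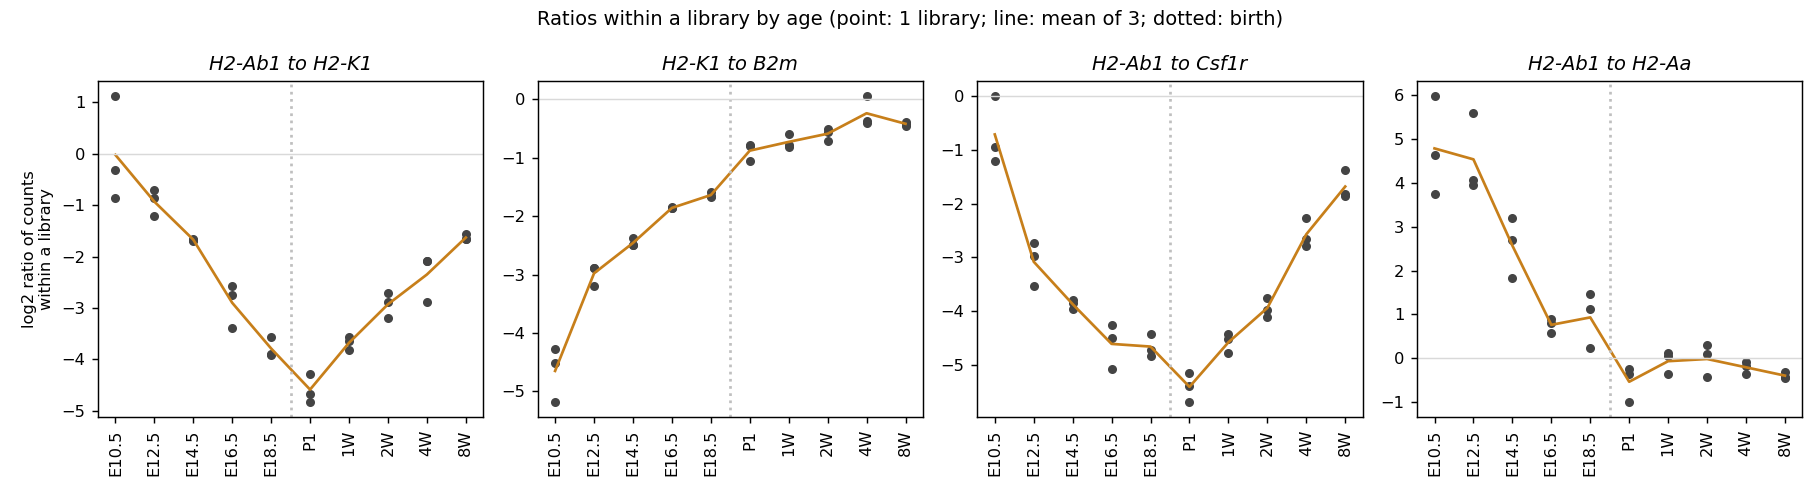
Log2 ratio of counts of paired genes within a library against age, with 1 point per library and a line through the mean of 3; 0 marks equal counts and the dotted line birth. H2-Ab1 falls against H2-K1 and Csf1r to its lowest at P1 and then climbs, H2-K1 gains on B2m, and the H2-Ab1 to H2-Aa ratio falls to near 0 by P1 and stays there.

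The rest of the class I pathway moved with the 5 genes in part. Of 27 further genes of the pathway in the table, 23 were tested. Before birth 15 rose and 3 fell, where 6337 of all 19280 genes rose and 5860 fell. Across birth 7 rose and 3 fell (3808 and 3671 of all genes), and after birth 18 rose and 1 fell (6123 and 6763 of all genes). Nlrc5, the coactivator that acts on class I genes as Ciita does on class II, held 0.03229, 0 and 0 CPM at E10.5, 0.802, 0.4816 and 0.4516 CPM at E18.5 and 5.967, 3.704 and 5.105 CPM at 8W. Its ratio of scaled counts from E10.5 to E18.5 was 58.86 (95% interval 10.17 to 2363, counting error only; adjusted p = 4.2e-07), and it rose by 2.82 ± 0.37 after birth (adjusted p = 6e-08). The immunoproteasome subunit Psmb8 rose by 3.99 ± 0.45 before birth (adjusted p = 3.5e-09) and by 1.79 ± 0.27 after it (adjusted p = 7.4e-07). Tapbp, which encodes the chaperone tapasin, rose by 2.72 ± 0.1 (adjusted p = 1.2e-21) and by 1.08 ± 0.09 (adjusted p = 7.6e-13).

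Nonclassical class I genes went both ways. H2-T23, which encodes Qa-1, rose by 3.61 ± 0.29 before birth (adjusted p = 3.6e-12), by 1.81 ± 0.19 across it (adjusted p = 8.3e-09) and by 1.03 ± 0.18 after it (adjusted p = 6.4e-06). H2-Q6 and H2-Q7 rose after birth by 3.87 ± 0.84 (adjusted p = 0.00036) and 3.55 ± 0.64 (adjusted p = 2.8e-05), the latter with 13.39 CPM in 4W replicate 1 against 2.384 and 1.433 CPM. H2-Q2 fell: it held 5.393, 3.689 and 5.209 CPM at E10.5 and 0, 0.02293 and 0.02822 CPM at E18.5, a ratio of scaled counts of 257.4 (95% interval 70.89 to 2131, counting error only; adjusted p = 1.3e-10). Cd1d1, which presents lipids, held 19.11, 24.72 and 24.06 CPM at P1 and 2.452, 2.533 and 2.632 CPM at 8W, a fall of 3.15 on the log2 scale (SE 0.14, adjusted p = 5.1e-19). The endoplasmic reticulum chaperones Calr (-1 ± 0.14, adjusted p = 9.6e-07), Canx (-0.62 ± 0.11, adjusted p = 2e-05) and Pdia3 (-0.67 ± 0.08, adjusted p = 3.8e-08) were the 3 genes of the list that fell across birth. The H2-Q and H2-T genes share sequence with one another, so their split is uncertain.

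Of 22 further class II pathway genes in the table, 19 were tested, and 9 rose and 3 fell before birth (6337 and 5860 of all 19280 genes), 9 rose and 3 fell across it (3808 and 3671) and 9 rose and 5 fell after it (6123 and 6763). H2-DMa and H2-DMb1, the chains of the peptide editor of class II, rose after birth by 2.09 ± 0.29 (adjusted p = 1.5e-07) and 2.96 ± 0.39 (adjusted p = 6.7e-08). Before birth H2-DMa changed by -0.03 ± 0.32 (adjusted p = 0.94). Ctss, the protease that trims the invariant chain, behaved the other way round, with a rise of 5.38 ± 0.27 before birth (adjusted p = 8.6e-18) and of 0.46 ± 0.16 after it (adjusted p = 0.013). The Rfx and Nfy genes of the list, whose factors bind the X and Y boxes, fell or were not called after birth. Rfx5 (-0.59 ± 0.11, adjusted p = 3.6e-05), Rfxank (-0.34 ± 0.08, adjusted p = 0.00055), Nfyb (-0.36 ± 0.12, adjusted p = 0.01) and Nfyc (-0.21 ± 0.07, adjusted p = 0.0094) fell. Rfxap (0.21 ± 0.13, adjusted p = 0.14) and Nfya (-0.12 ± 0.07, adjusted p = 0.12) were not called. Creb1, which encodes a factor that binds cyclic AMP response elements, rose by 0.42 ± 0.1 (adjusted p = 0.00027).

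Interferon gamma is known to raise both classes, and genes of its response were read beside them. Ifng itself was at 0 in most libraries and never above 0.04895 CPM. Of the 11 of 12 genes tested, 9 rose and 0 fell before birth, 3 rose and 3 fell across it, and 8 rose and 0 fell after it. Of all genes, 32.9%, 19.8% and 31.8% rose over these spans, so that the count across birth was near that of all genes. Irf1 rose by 1.32 ± 0.14 before birth (adjusted p = 8.8e-10) and by 1.52 ± 0.13 after it (adjusted p = 4.3e-12), from 6.657, 9.528 and 7.516 CPM at P1 to 23.04, 23.4 and 21.74 CPM at 8W. Gbp2, a guanylate-binding protein gene, rose by 4.46 ± 0.26 and 1.91 ± 0.16 (adjusted p = 3.1e-16 and 2.6e-12). Irf8, a factor of the myeloid line, rose by 3.44 ± 0.16 before birth (adjusted p = 1.5e-18) and was not called after it (-0.22 ± 0.14, adjusted p = 0.16).

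Markers of cells that carry these molecules were read beside them. All 12 macrophage markers rose before birth, where 32.9% of all genes rose. Cd163 had 0 counts at E10.5, so its ratio is a lower limit (at least 104, counting error only). The summed level of the 12 went from 14.58 to 20.42 CPM at E10.5 to 147 to 168.5 CPM at E18.5. The summed class II genes went from 1.582 to 2.172 CPM at E10.5 to 4.747 to 5.893 CPM at E18.5. Most of the rise of both sums was in place by E12.5, where they were 92.22 to 102.3 CPM for the macrophage markers and 4.471 to 5.164 CPM for class II. The class II sum at E12.5 was mostly H2-Ab1, whose mean then went from 3.044 to 1.081 CPM at E18.5. Over the same ages the mean of Cd74 went from 0.5625 to 1.975 CPM, of H2-Aa from 0.1177 to 0.5757 CPM and of H2-Eb1 from 0.4155 to 0.8772 CPM. That of Ciita went from 0.6455 to 0.6277 CPM. After birth 8 of the 12 rose and 1 fell (31.8% of all genes rose), with sums of 178.3 to 260.3 CPM at P1, 483.4 to 523.6 CPM at 4W and 444.3 to 483.7 CPM at 8W. From 4W to 8W none rose and 2 fell (2275 of all 19280 genes rose and 2326 fell), in the step in which 4 class II genes rose. Cx3cr1, a receptor of resident macrophages, fell from P1 to 8W by 1 on the log2 scale (SE 0.17, adjusted p = 3.6e-06). For the 12 macrophage markers the difference between the postnatal and prenatal changes was negative and called in each, as it was for 35.1% of all genes.

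Markers of other cell types were read in the same way. The 7 monocyte markers summed to 13.87 to 21 CPM at P1 and 13.4 to 15.54 CPM at 8W, and 2 rose and 4 fell (6123 and 6763 of all 19280 genes). Ccr2 (1.13 ± 0.38, adjusted p = 0.0094) and Itgam (1.18 ± 0.17, adjusted p = 2.8e-07) rose, and S100a8, S100a9, Chil3 and Plac8 fell. The 9 dendritic cell markers summed to 27.94 to 31.11 CPM at P1 and 28.48 to 31.94 CPM at 8W. The changes of the 6 tested ran from -0.22 for Clec9a to 1.93 for Batf3, with adjusted p of 0.081 or more. Flt3, Cd209a and Siglech were not tested. Between P1 and 8W the libraries of Cd209a and of Siglech did not overlap, and those of Flt3 did. Between 2W and 4W the libraries of Cd209a and of Flt3 did not overlap, and those of Siglech did. The Cd209a ratio of scaled counts between 2W and 4W, higher to lower, was 12.55 (interval 3.194 to 108.2, counting error only). The 8 B cell markers summed to 2.999 to 4.303 CPM at P1, 14.33 to 17.2 CPM at 4W and 7.522 to 9.412 CPM at 8W. Of the 8, 3 rose and 0 fell from P1 to 8W (6123 and 6763 of all 19280 genes). From 4W to 8W, 0 rose and 3 fell (2275 and 2326 of all genes). The 10 T and NK cell markers summed to at most 4.145 CPM in any library, and the thymus markers to at most 1.076 CPM, with Rag2, Foxn1, Psmb11 and Cd1d2 at 0 at 8W. Endothelial markers, 8 in all, summed to 1428 to 1531 CPM at P1 and 1337 to 1385 CPM at 8W, with 1 up and 5 down, and 6 fibroblast markers to 5867 to 8008 CPM and 2498 to 2763 CPM, with 1 up and 4 down. Their part in the MHC changes was not tested.

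**Figure D5:**
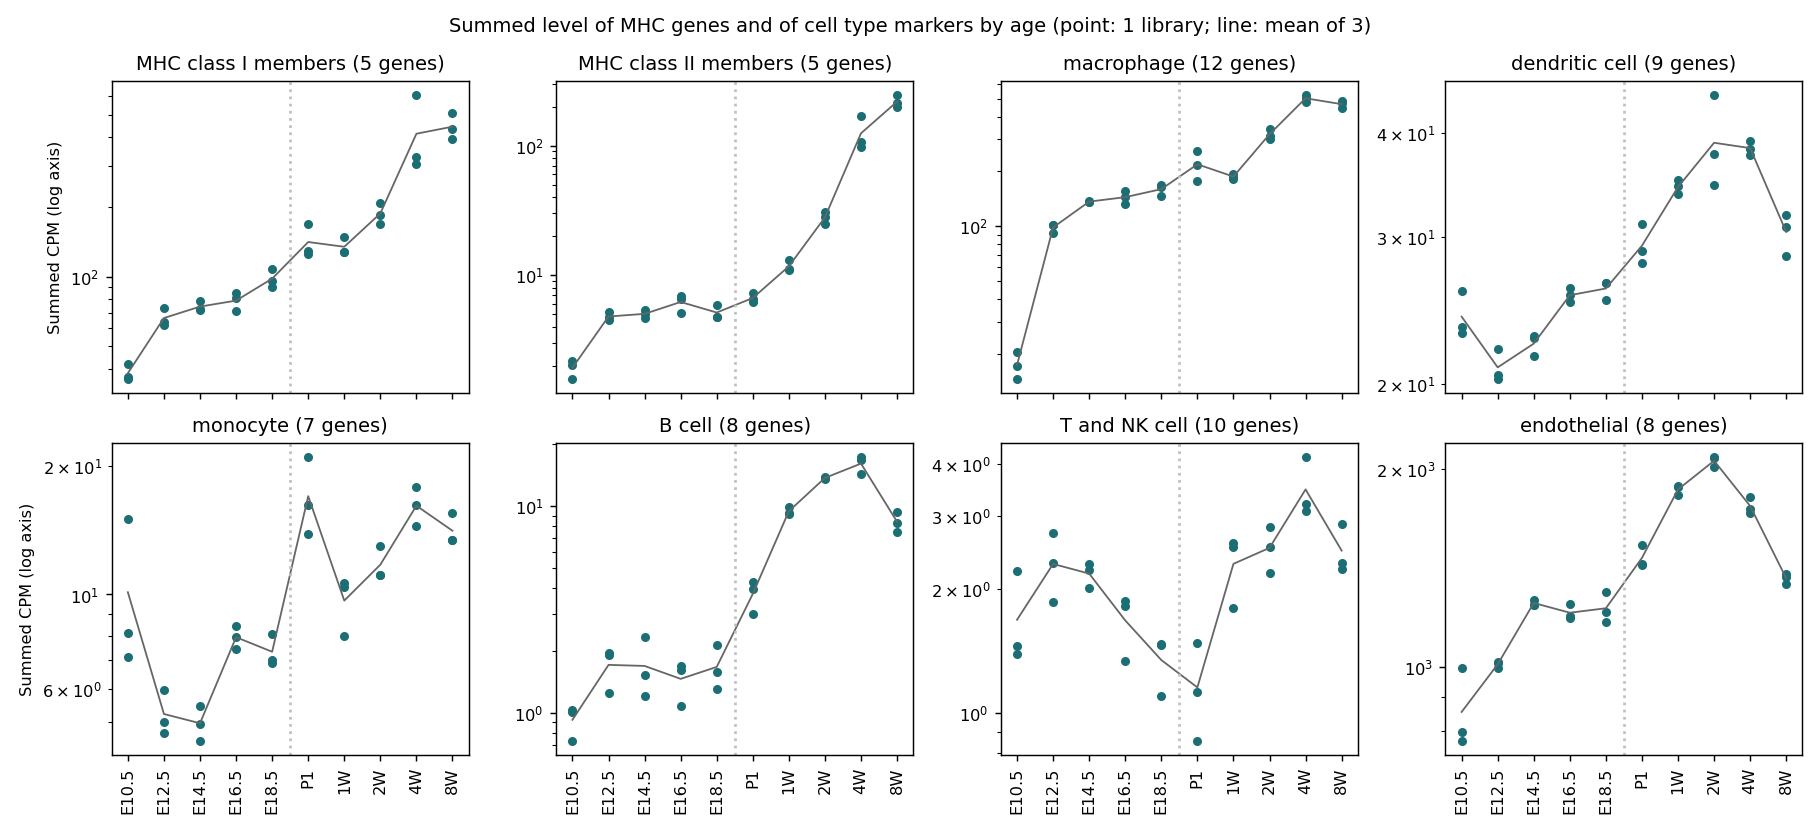
Summed CPM (log axes with their own ranges) of the MHC genes of each class and of 6 lists of cell type markers against age, with 1 point per library and a line through the mean of 3. From E10.5 to E12.5 the mean sum goes from 17.36 to 98.59 CPM for macrophage markers and from 1.925 to 4.785 CPM for class II, and from 4W to 8W from 503.8 to 467.6 CPM and from 124.3 to 218.4 CPM.

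The 10 genes varied together over the 30 libraries, which share the course of age. Pearson r of log2 CPM ranged from 0.644 to 0.99 (median 0.946) over the 10 pairs within class I, from 0.688 to 0.981 (median 0.802) over the 10 within class II and from 0.522 to 0.954 (median 0.862) over the 25 between the classes. The genes whose profile was most like the mean of H2-K1, H2-D1 and B2m, among 13646 genes with at least 1 CPM at some age, were Nlrc5 (r = 0.981), Psap (0.979), Znfx1 (0.977), Abca2 (0.976), Foxj2 (0.975) and Dglucy (0.974). Those most like the mean of H2-Aa, H2-Ab1 and H2-Eb1 were Ttc7 (r = 0.983), Nacc2 (0.982), Suox (0.982), Ldhd (0.981), Ttll1 (0.979) and Dennd4b (0.979). These correlations over libraries of different ages are descriptions.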

How the data were processed

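Poly(A)-selected RNA was sequenced in 30 libraries of mouse heart, 3 at each of 10 ages. The read trimmer fastp 0.18.0, the aligner STAR 2.5.3a and the build GRCm38 (mm10) are named in the submitters' processing notes. The authors deposited 1 table of expected counts for 48820 genes, in which 6.94% of values were not whole (tolerance 1e-06), so that values were rounded. Which program counted the reads, on which annotation and with which strand setting, is not given in the sources used here. Symbols for 48144 gene identifiers came from GENCODE M21, and genes without a symbol held 0.225% of counts. All 30 columns were used, and the columns not mapped to a sample numbered 0. Replicates were checked for repeated libraries, and the lowest chi-square per gene between 2 replicates was 6.77, well above sampling noise.

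Genes were filtered with filterByExpr (19280 kept), scaled with TMM and fitted with edgeR 4.0.16 (glmQLFit, robust, and glmQLFTest) in R 4.3.3, with 10 age means and 20 residual degrees of freedom. TMM factors ranged from 0.60 to 1.34. P-values were adjusted by the Benjamini-Hochberg method over all genes tested, with calls at 0.05. The difference between spans was a contrast of the same fit. Ratios of counts within a library, with 1 count added to each gene, were tested with an F ratio and 100000 permutations of the age labels. For genes with few counts in a group, the ratio of summed scaled counts was given with a 95% interval, and a limit for a count of 0 was set at 3 counts. Both cover counting error only. Fits were tested on simulated data made from these libraries. Alternatives were other scalings, other filters, a replicate block, a sex term, the compared ages alone, DESeq2 1.42.0 and each library left out. Leaving out the libraries that stood apart was added after seeing the data. Figures were drawn with matplotlib 3.10.9 in Python 3.11.15.

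The 10 genes and all lists were chosen with earlier results of these data known. All 10 genes are named. From the lists, up to 5 called genes with the largest changes and genes on which a result turned could be named, and the genes most like each class were the 6 with the highest Pearson r. Tapbp, H2-Ea-ps, Rfx5, Rfxap, Rfxank, Creb1, Nfya, Nfyb, Nfyc, Ifng, Batf3, Flt3, Cd209a, Siglech, Ccr2 and the thymus markers at 0 are named outside this rule. They were chosen after their values were seen.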

Additional observations from a re-analysis of the deposited data

Results flagged for a closer look

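For 8 of the 10 genes the change from P1 to 8W differed from the change from E10.5 to E18.5 by the test of that difference (edgeR quasi-likelihood test, Benjamini-Hochberg adjustment over 19280 genes). The log2 difference, postnatal minus prenatal, was negative for the class I genes H2-K1 (-1.5), H2-D1 (-1.09), Tap1 (-3.1) and Tap2 (-2.54). It was positive for the class I light chain gene B2m (1.03) and for the class II genes H2-Ab1 (5.33), H2-Eb1 (2.51) and Cd74 (2.37). Of all genes tested, 26.1% had a positive called difference and 35.1% a negative one. The summed macrophage markers went from 14.58 to 20.42 CPM at E10.5 to 147 to 168.5 CPM at E18.5 and from 178.3 to 260.3 CPM at P1 to 444.3 to 483.7 CPM at 8W, and their part in these differences was not tested.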

How the results depend on the processing

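For 47 of 60 results on single genes, the call was the same under each of 42 alternatives. Of the 2520 alternatives for single genes 2491 kept the call, 20 lost it and 6 gained it. The other 3, all of H2-K1 from 4W to 8W, could not be sorted by direction, since the change was 0.00 with all libraries. A turn of direction was not counted where neither fit called the gene. The change of H2-K1 from 4W to 8W, 0.00 with all libraries, was 0.57 without 4W replicate 1, 0.57 without E10.5 replicate 2, P1 replicate 2 and 4W replicate 1 together, and 0.65 with 4W replicate 3, which had 0 CPM of Scgb1a1, as the one 4W library (then assumed to vary like the other ages). Over all single libraries left out it ranged from -0.25 to 0.57. The number of the 10 genes called from E12.5 to E14.5 was 2, and it was 6 with the compared ages alone, 4 with DESeq2, 6 with the 3 libraries left out and 6 with 4W replicate 3 alone. From E16.5 to E18.5 it was 1, against 0 with library size alone or with no filter on low counts, 4 with the compared ages alone and 2 with either set of libraries left out. From P1 to 1W it was 4, against 2 with library size alone, and from 4W to 8W it was 4, against 7 with the 3 libraries left out. The cause was not tested. With the compared ages alone, H2-K1 (1.53, adjusted p = 0.07) and H2-D1 (0.98, adjusted p = 0.063) were not called from 2W to 4W, nor Cd74 from 4W to 8W (0.67, adjusted p = 0.14), with changes about as large as in the fit of all ages.

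Leaving out 1 library at a time gave 6 to 10 calls from E10.5 to E12.5, 1 to 6 to E14.5, 4 to 6 to E16.5, 0 to 2 to E18.5, 3 to 4 to P1, 2 to 5 to 1W, 4 to 8 to 2W, 8 to 9 to 4W and 4 to 6 to 8W. It gave 9 calls from E10.5 to E18.5, 10 from P1 to 8W, 7 to 8 for the difference of both spans and 10 across the ages. The 3 tested ratios kept adjusted p = 1e-05 under each of their alternatives. With a replicate block the calls were 10, 3, 5, 1, 4, 4, 6, 9 and 4 over the steps in order of age, 9 and 10 over the spans before and after birth, and 8 for their difference. The calls of the 60 single-gene results were as without the block, which does not cover the other steps. The labels do not say that a number pairs libraries, and deviations from the age means correlated by 0.01 on average for libraries of the same number and by -0.01 for others. The compared ages alone cannot be fitted for the test across the ages.

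With library size alone the median of all genes moved by up to 0.3 per step. The genes rising and falling were then 1508 and 4015 (2711 and 2309 with TMM) to E16.5, 2583 and 4718 (3808 and 3671) to P1, 2507 and 4490 (3624 and 3273) to 1W, 1131 and 6985 (2996 and 2712) to 2W, 1245 and 5325 (3053 and 2515) to 4W and 800 and 3764 (2275 and 2326) to 8W. To E18.5 they were 1827 and 2764 (2513 and 2159), and for the difference of spans 2191 and 10556 (5024 and 6767). With upper quartile factors they were 2378 and 3233 to 4W, 1682 and 2756 to 8W, and 4884 and 8240 from P1 to 8W (6123 and 6763 with TMM). Depth limited H2-Aa, with 2 counts at E10.5, and Ciita, with 798 counts in all.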
